A study of Mus musculus with 2 samples.

Results

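The genes described here are the 144 protein-coding mouse genes whose name is Zfp followed by digits and which reached 1 FPKM in at least 1 of 2 RNA sequencing libraries of CT26 cells. FPKM scales the fragments on a gene by the length of its gene model and by sequencing depth. Here both libraries were divided by a common depth of 18731117 reads, not each by its own total. The members were chosen by name and by these FPKM values, out of 365 protein-coding genes so named and 54680 loci in the table. Of the members, 119 reached 1 FPKM in both libraries, 15 only in shCtrl and 10 only in shSetdb1. The 25 members that entered through a single library had to differ between the libraries, so their differences partly follow from the choice.

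CT26 is an established mouse colon cancer line. One library came from CT26 cells given a lentivirus with a short hairpin RNA against Setdb1 (shSetdb1, genotype Setdb1 knockdown), and the other from CT26 cells given lentivirus with the empty knockdown vector (shCtrl, genotype wild type). Both groups share infection and growth in RPMI medium with serum, and total RNA was taken on day 6, by which time the hairpin cells had a changed phenotype and are titled differentiated in the labels. Each group had 1 library, so no difference below has a replicate check or a p-value, and the labels give neither the number of hairpins nor whether the cells were a clone or a pool.

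Many Zfp proteins carry tandem zinc fingers, in which cysteine and histidine residues hold a zinc ion and the finger reads a short stretch of DNA. A large subset also carries a KRAB box, which binds Trim28. Trim28 recruits Setdb1, the enzyme that places the silencing mark H3K9me3, and that mark also covers many Zfp gene clusters themselves.

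A pair of measures is used throughout. The log2 ratio is shSetdb1 over shCtrl of FPKM + 1, which understates the difference of genes at low levels. It keeps the common depth of the FPKM values. The read ratio compares reads recovered from the FPKM values, each set against its own library total, and carries a 95% exact binomial interval. These intervals cover counting error only, since reads amplified without molecular identifiers are not independent molecules, and they hold nothing of the variation between cultures. Levels in bulk RNA cannot tell fewer cells with a transcript from less transcript per cell.

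The libraries held 18421604 reads (shCtrl) and 19045830 reads (shSetdb1), a ratio of 1.03. Setdb1 stood at 10.4 FPKM (1340 reads) in shCtrl and 2.47 FPKM (317 reads) in shSetdb1, a read ratio of 0.229 (0.202 to 0.259). Of 9 listed colon epithelium markers, 2 reached 1 FPKM in shCtrl and 3 in shSetdb1, with summed levels of 43.2 and 128 FPKM. Epcam, Cdh1 and Cdx1 had 0 reads in both libraries, so these defining epithelial markers were not detected. The sums rested mostly on Krt18 (37.7 and 90.0 FPKM) and Krt20 (5.07 and 35.6 FPKM). Krt19 had 1 and 53 reads, Krt8 had 7 and 8, Cdx2 had 5 and 18, and Vil1 had 1 and 7. The 8 listed markers of leukocytes, endothelium and fibroblasts summed to 58.7 and 140 FPKM, and of these Adgre1, Pecam1 and Cdh5 had 0 reads. Cd68, a macrophage marker, stood at 10.4 and 100 FPKM, while the collagen genes of fibroblasts were lower in shSetdb1 (Col1a1 with 3951 and 2950 reads, Col3a1 with 493 and 163). Pdgfrb, also listed for fibroblasts, stood at 13.5 and 14.6 FPKM, and the leukocyte marker Ptprc had 0 and 4 reads. The part of these differences in the Zfp values was not tested.

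The Zfp genes as a group stood at nearly the same level in both libraries, and few of them moved by 2-fold. Of the 144 members, 3 were at least 2-fold higher in shSetdb1 (2.08%, against 6.81% of the 10671 genes at 1 FPKM): Zfp217, Zfp395 and Zfp324. A single member, Zfp110, was at least 2-fold lower (0.694%, against 4.85% of all genes). The members' median log2 ratio was -0.03, with quartiles at -0.33 and 0.25. Over all genes the median was -0.0004, with quartiles at -0.36 and 0.38. There were 69 members above 0 and 75 below, in a range from -1.02 to 1.25. These log2 values keep the common depth. With each library scaled by its own total, the median was -0.08 for the members and -0.04 for all genes. With a pseudocount of 0.1 the counts were 10 higher and 6 lower (11.1% in all, against 18.8% of all genes), and with upper-quartile scaling 3 and 2. Of the members, 45 share their Swiss-Prot match with another locus, and how reads common to such near copies were counted is not given in the sources used here.

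Counting intervals lay above 1 for 44 members (30.6%, against 35.2% of all genes) and below 1 for 59 (41.0%, against 40.6%). At this depth most expressed genes had an interval clear of 1, so such an interval is common and shows no response of a gene by itself. Summed over the members there were 83642 reads in shCtrl and 83202 in shSetdb1, a ratio of 0.962 (0.953 to 0.971). Without Zfp598, the member with the most reads in shCtrl, the ratio was 1.0 (0.990 to 1.01). Zfp genes of any level took 0.478% of all reads in shCtrl and 0.460% in shSetdb1.

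The count past 2-fold was also set beside that of protein-coding genes of like level. Below a mean of 2 FPKM, 0 of 43 members were past 2-fold, against 102 of 1444 protein-coding genes (7.06%). From 2 to 5 FPKM the counts were 0 of 38 against 179 of 1921 (9.32%), and from 5 to 10 FPKM they were 3 of 36 (8.33%) against 168 of 1601 (10.5%). At 10 FPKM or more, 1 of 27 members (3.70%) stood beside 519 of 4399 protein-coding genes (11.8%). The shares were close from 5 to 10 FPKM and lower among members in the other ranges, all of which were chosen after the values were seen.

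**Figure D1:**
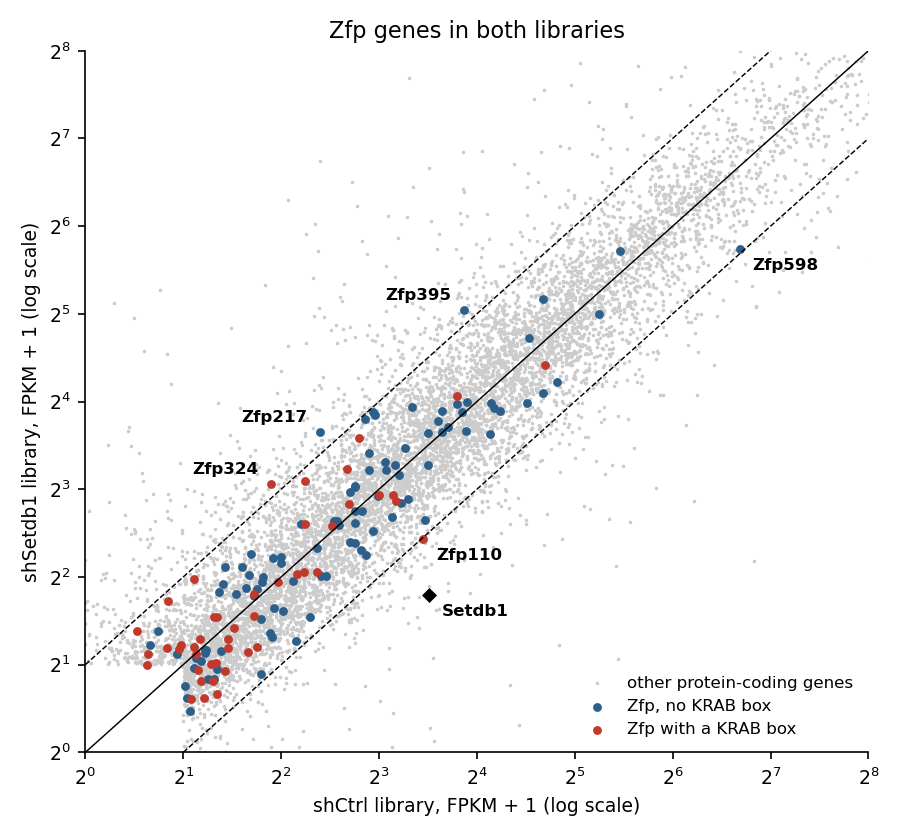
Each point is a gene, placed by FPKM + 1 in the shCtrl library (x axis) and the shSetdb1 library (y axis), both on log scales. Blue and red points are the 144 Zfp members without and with a KRAB box, grey points are other protein-coding genes at 1 FPKM, the solid line is equality and the dashed lines are 2-fold. Most Zfp points lie between the dashed lines, Zfp217, Zfp395 and Zfp324 lie above them, and Zfp110 lies just below.

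The threshold of 1 FPKM cut through a continuous range of levels. Just inside it were Zfp938 at a higher value of 1.004 FPKM, Zfp451 at 1.021 and Zfp438 at 1.048. Just outside were Zfp772 at 0.9997, Zfp113 at 0.9960 and Zfp984 at 0.9533. For a Zfp gene of median length, 1 FPKM corresponds to about 81.2 reads.

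**Figure D2:**
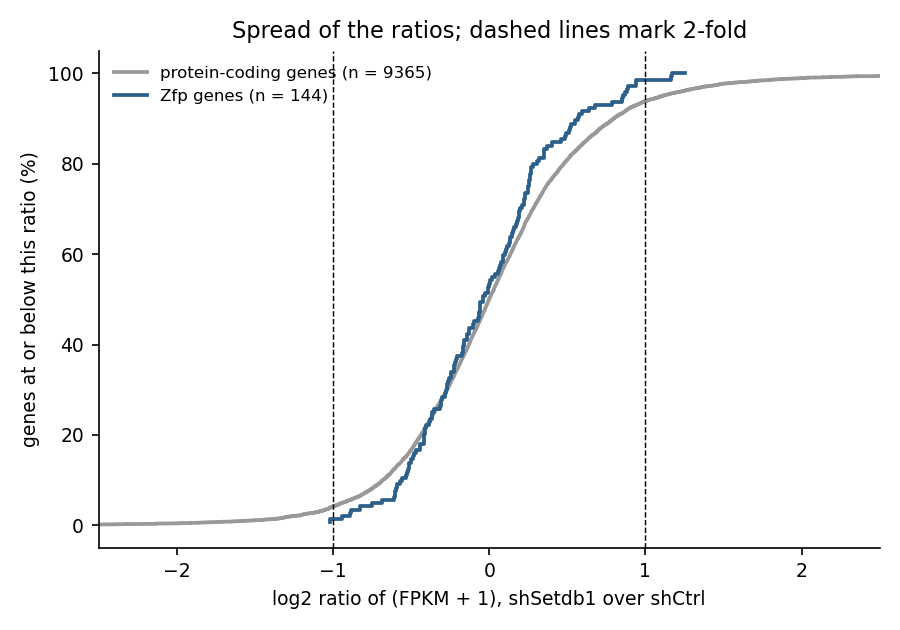
Cumulative share of genes (y axis, in %) at or below each log2 ratio of FPKM + 1, shSetdb1 over shCtrl (x axis), for the 144 members in blue and 9365 protein-coding genes at 1 FPKM in grey. The lines cross near 0, and the blue line climbs from -1.02 to 1.25 while the grey line extends past the dashed 2-fold lines on either side.

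Zfp217 had the highest log2 ratio of the members. It encodes a transcriptional regulator that is amplified in several carcinomas and works with corepressor complexes. Its level was 4.28 FPKM (492 reads) in shCtrl and 11.6 FPKM (1331 reads) in shSetdb1, which gave a log2 ratio of 1.25, and the read ratio was 2.62 (2.36 to 2.91). Zfp395, which encodes a transcription factor known to respond to low oxygen, went from 13.6 FPKM (1207 reads) to 31.9 FPKM (2830 reads), a log2 ratio of 1.17. Its gene overlaps Gm48449, and whether counting used strand is not given, so reads of the overlap cannot be assigned to either gene with certainty. Zfp324, a KRAB gene by its translated protein but not by the authors' annotation, went from 2.73 FPKM (244 reads) to 7.34 FPKM (657 reads). Its log2 ratio was 1.16. It overlaps no other gene with reads, and its read ratio was 2.60 (2.25 to 3.03).

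Zfp110 was the lowest member. It encodes a KRAB zinc finger protein known as a partner of a neurotrophin receptor. Its level was 9.96 FPKM (768 reads) in shCtrl and 4.41 FPKM (340 reads) in shSetdb1, which gave a log2 ratio of -1.02, and the read ratio was 0.428 (0.376 to 0.487). The Swiss-Prot match of Zfp110 is carried by 2 loci, and how reads common to near copies were counted is not given in the sources used here. Zfp110 and Zfp324, at opposite ends of the list, lie in the same gene cluster on chromosome 7.

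The 250 bases before the annotated starts of these genes are shown because they are the members past 2-fold. They are RefSeq sequences on GRCm38.p6, written from 5′ to 3′ on the strand of the gene. Zfp395 has no sequence here. The Zfp324 window is chr7:12965588-12965837 on the plus strand, and the Zfp110 window is chr7:12834511-12834760 on the plus strand. Zfp217 has a pair of annotated starts, with windows chr2:170131221-170131470 and chr2:170142676-170142925, both on the minus strand and both inside the gene's span in the deposited table, which ends at 170148103. Capitals mark matches, on either strand, to 5 motifs searched: the CCAAT box (CCAAT), the hypoxia response element (ACGTG or GCGTG), the interferon-stimulated element (GAAANNGAA), the cAMP response element (TGACGTCA) and a short Zfp143 motif (ACTACAA). The marked matches do not overlap each other.
Zfp324: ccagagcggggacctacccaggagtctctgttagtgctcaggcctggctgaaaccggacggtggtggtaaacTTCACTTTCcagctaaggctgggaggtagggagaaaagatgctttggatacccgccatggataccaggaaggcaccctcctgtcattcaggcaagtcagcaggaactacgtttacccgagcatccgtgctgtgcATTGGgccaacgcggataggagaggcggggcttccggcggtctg
Zfp217, window from 170131221: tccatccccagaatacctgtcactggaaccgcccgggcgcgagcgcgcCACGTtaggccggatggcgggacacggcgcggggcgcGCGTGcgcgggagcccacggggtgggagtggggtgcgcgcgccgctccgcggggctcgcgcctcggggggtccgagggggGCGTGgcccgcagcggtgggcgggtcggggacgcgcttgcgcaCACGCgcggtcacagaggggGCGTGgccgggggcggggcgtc
Zfp217, window from 170142676: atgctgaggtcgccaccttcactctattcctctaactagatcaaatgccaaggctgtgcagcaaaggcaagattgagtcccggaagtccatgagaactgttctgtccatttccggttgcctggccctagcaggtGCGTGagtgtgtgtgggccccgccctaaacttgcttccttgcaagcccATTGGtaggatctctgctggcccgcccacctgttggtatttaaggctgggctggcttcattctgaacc
Zfp110: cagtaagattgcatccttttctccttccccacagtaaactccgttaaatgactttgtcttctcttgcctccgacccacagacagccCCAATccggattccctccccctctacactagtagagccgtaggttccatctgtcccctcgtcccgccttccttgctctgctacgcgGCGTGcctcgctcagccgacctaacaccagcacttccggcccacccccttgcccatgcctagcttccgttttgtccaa

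Positions are counted from 1 at the 5′ end of each window. The Zfp324 window holds an interferon-stimulated element at 73 to 81 and a CCAAT box at 207 to 211, both on the opposite strand. The GC-rich Zfp217 window (GC content of 80.0%) holds 5 hypoxia response elements, while the other Zfp217 window holds 1 and a CCAAT box. Zfp110 has a CCAAT box at 87 to 91 and a hypoxia response element at 173 to 177. These are short strings that occur often, and a match describes letters, not a bound factor.

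Among 147 windows of 115 matched members, 37.4% held a CCAAT box, against 33.8% of all 32851 windows and 53.0% of the 215 windows of Zfp genes under 1 FPKM. Hypoxia response elements were in 51.7% of the members' windows and 38.6% of all windows. The interferon-stimulated element was in 6.80% against 7.13%, the cAMP response element in 4.08% against 1.55%, and the Zfp143 motif in 5.44% against 2.81%. Base composition differed too: median GC was 58.0% in members' windows, 52.4% in all windows and 60.4% in those of protein-coding genes at 1 FPKM. In the windows of these expressed protein-coding genes the CCAAT box was in 36.0%, the hypoxia response element in 58.1%, the interferon-stimulated element in 6.17%, the cAMP response element in 2.61% and the Zfp143 motif in 4.11%. Of the members' windows, 6 held the cAMP response element and 8 the Zfp143 motif. KRAB members had a median GC of 51.2% and other members 61.8%.

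The next members by log2 ratio were just short of 2-fold on this scale. Zfp687 stood at 6.66 FPKM (742 reads) in shCtrl and 13.7 FPKM (1527 reads) in shSetdb1, a log2 ratio of 0.94. Its start lies 317 kb from that of Setdb1 on chromosome 3, and it overlaps Pi4kb. Zfp36 encodes tristetraprolin, which binds AU-rich elements in cytokine transcripts and speeds their decay. It went from 6.25 FPKM (406 reads) to 12.9 FPKM (838 reads), also a log2 ratio of 0.94, and overlaps Gm44710. Zfp526 had 430 and 851 reads (0.89) and Zfp7 had 406 and 819 reads (0.85).

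A further 3 of the 10 highest had few reads in shCtrl. Zfp53 had 46 reads in shCtrl and 133 in shSetdb1 (0.801 and 2.32 FPKM). Zfp382 had 50 and 127 reads (1.16 and 2.95 FPKM). Zfp949 had 34 and 124 reads (0.442 and 1.61 FPKM), and its read ratio of 3.53 (2.40 to 5.32) was above that of Zfp217, although its log2 ratio of 0.86 was lower. Zfp53 and Zfp949 entered the members only through the shSetdb1 library.

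**Figure D3:**
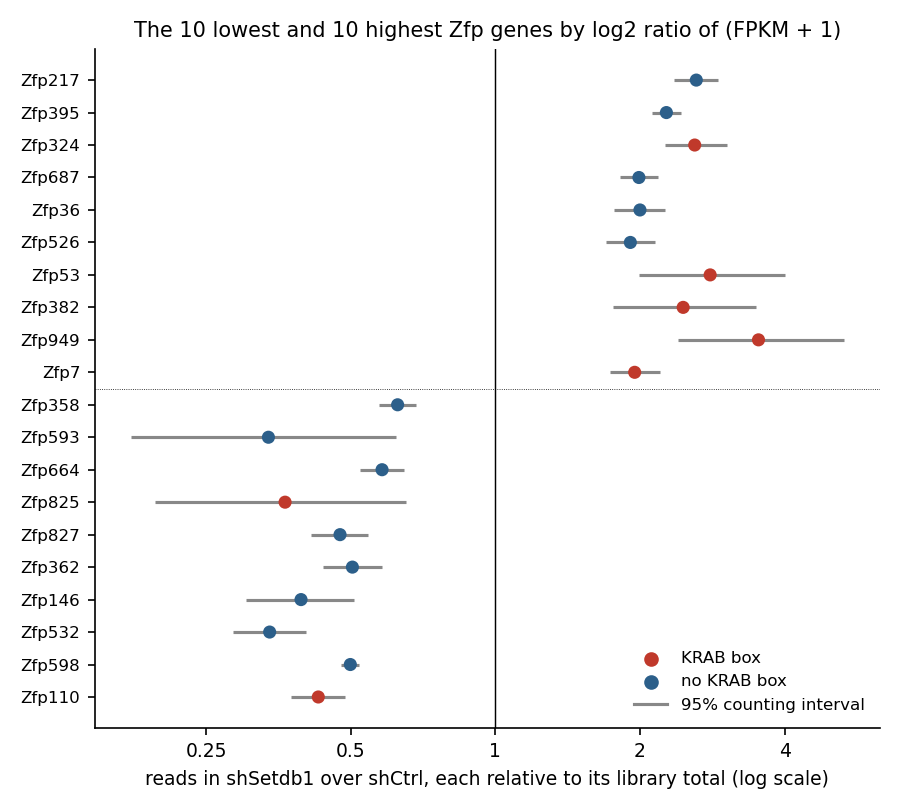
Read ratio, shSetdb1 over shCtrl with each library set against its own total (x axis, log scale), of the 10 members with the highest and the 10 with the lowest log2 ratio of FPKM + 1. Points are ratios, red with and blue without a KRAB box, and grey bars are 95% counting intervals, widest for genes with few reads such as Zfp593 (43 and 15 reads). All 20 intervals lie clear of 1, with Zfp949 the farthest to the right at 3.53.

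At the lower end, Zfp598 was the most abundant member in shCtrl. It encodes a ubiquitin ligase that marks collided ribosomes. Its level was 102 FPKM (6264 reads) in shCtrl and 52.5 FPKM (3229 reads) in shSetdb1, which gave a log2 ratio of -0.94, and the read ratio was 0.499 (0.478 to 0.520). The member with the next most reads in shCtrl was Zfp740, with 4119 there and 4922 in shSetdb1.

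Zfp532 stood at 2.46 FPKM (516 reads) and 0.863 FPKM (181 reads), a log2 ratio of -0.89. Zfp687, Zfp592 and Zfp532 encode proteins known to bind one another in a chromatin complex, and these genes differed in direction. Zfp592, named after its values were seen, stood at 8.33 FPKM (1157 reads) and 6.17 FPKM (856 reads), a log2 ratio of -0.38, with a read ratio of 0.716 (0.654 to 0.782). Zfp687 was therefore higher, and Zfp592 and Zfp532 lower, in the shSetdb1 library.

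Zfp146, which encodes a protein made almost wholly of zinc fingers, had 211 and 86 reads, a log2 ratio of -0.89. Zfp362 had 578 and 301 reads (-0.83), Zfp827 had 656 and 322 (-0.75), and Zfp664 had 921 and 553 (-0.61). The remaining genes of the 10 lowest were Zfp358, with 1256 and 813 reads (-0.60), and the scarcer Zfp825 (45 and 17 reads) and Zfp593 (43 and 15 reads). Zfp825 and Zfp593, like Zfp532, were under 1 FPKM in shSetdb1. Zfp827 and Zfp593 are among the 46 members that overlap another gene with reads.

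The 6 members with the highest mean levels were Zfp598, Zfp740, Zfp706, Zfp703, Zfp622 and Zfp395. Zfp740 stood at 43.2 FPKM in shCtrl and 51.6 FPKM in shSetdb1, and Zfp706 at 36.9 and 31.0 FPKM. Only Zfp598 and Zfp395 of these 6 had a log2 ratio beyond 0.5 in size.

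By known role, a list of 31 Zfp genes was described, of which 21 were members. Among these 21, 6 had a counting interval above 1 (28.6%, against 35.2% of all genes) and 12 below (57.1%, against 40.6%), and Zfp217 was past 2-fold. The counts by role below are to be read against the same shares of all genes, since each role holds few members.

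The members known for silencing imprinted loci and retroviral sequences, the role closest to Setdb1, had fewer reads in shSetdb1. Of 9 listed genes, 4 were members, and all 4 had an interval below 1, as did 40.6% of all genes, while none was 2-fold lower. Zfp57, which keeps methylation at imprinted regions, stood at 8.04 FPKM (570 reads) and 6.32 FPKM (448 reads), a log2 ratio of -0.30. Zfp445, which acts beside Zfp57 at imprints, stood at 1.28 FPKM (177 reads) and 0.764 FPKM (106 reads), a log2 ratio of -0.37. Zfp445 entered the members only through shCtrl, and 14 of the 15 such members had an interval below 1. Zfp568, a repressor of a placental Igf2 transcript, had 299 and 167 reads (-0.52). Zfp809, which recognises the primer binding site of murine leukaemia virus, had 132 and 72 reads (-0.56).

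Under 1 FPKM, Zfp866 had 100 and 47 reads and Zfp961 had 72 and 30, both with intervals below 1 and both overlapping another gene with reads. Zfp932, which binds endogenous retroviruses, had 21 and 25 reads, while Zfp708 and Zfp819 had 0 reads in both libraries. The 9 genes summed to 1371 and 895 reads, a ratio of 0.631 (0.580 to 0.687). Protein-coding genes at 1 FPKM with a mean below 2 FPKM also summed to less than 1, at 0.847. Zfp genes under 1 FPKM summed to 0.959. The list of 9 was chosen with earlier results of these data known. Zfp568 did not share this direction with Zfp382 of the same cluster, whose start is 138 kb away. Of that cluster's 6 members, 2 had an interval above 1 and 3 below. Zfp74 and Zfp566, named after their values were seen, start nearer to Zfp568. They had 79 and 39 reads and 36 and 17 reads, both with intervals below 1.

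Genes that act on RNA and translation were mixed, with 8 of 9 listed genes among the members, 2 intervals above 1 and 5 below. Besides Zfp36 and Zfp598, Zfp622, a ribosome assembly factor, stood at 22.2 and 25.4 FPKM (0.19). Zfp106, an RNA-binding protein, stood at 6.66 and 4.74 FPKM (-0.42), and Zfp346, which binds double-stranded RNA, at 17.9 and 13.8 FPKM (-0.35). Zfp207, a spindle and splicing factor, stood at 16.7 and 14.8 FPKM (-0.17). The remaining values were small: Zfp326 at 1.61 and 1.24 FPKM, Zfp830 at 2.38 and 2.65 FPKM, and Zfp638 under the threshold at 0.277 and 0.209 FPKM.

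Genes of transcription, cell growth and fate held 7 members of 11 listed, with 4 intervals above 1 and 1 below. Zfp703, a cofactor amplified in luminal breast cancer, stood at 24.6 and 35.0 FPKM (0.49). Zfp335, which works with histone methyltransferase complexes in neural progenitors, stood at 9.12 and 14.3 FPKM (0.60). Zfp143, an activator at many promoters and loop anchors, stood at 2.19 and 3.06 FPKM (0.35) and overlaps another gene with reads. These 3 and Zfp217 were the genes higher in shSetdb1.

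Zfp148, which binds GC-rich promoters, stood at 1.38 and 0.782 FPKM (-0.42). Zfp281 and Zfp462, both known from pluripotent cells, stood at 1.16 and 0.952 FPKM (-0.14) and at 1.34 and 1.19 FPKM (-0.10), with intervals that include 1. The lineage genes were silent or nearly so: Zfp42 and Zfp521 had 0 reads in both libraries, Zfp423 had 1 and 3 reads, and Zfp750, a gene of epidermal differentiation, had 1 and 5. Of the ubiquitin and SUMO enzymes, Zfp91 stood at 6.07 and 5.77 FPKM (-0.06) and Zfp451 at 1.02 and 0.688 FPKM (-0.26).

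The KRAB box was sought in the proteins translated from GENCODE M21 transcripts. It was found in 215 of the 365 Zfp genes, but only 46 of these (21.4%) reached 1 FPKM, against 98 of the 150 without a box (65.3%). Most KRAB genes were therefore under the threshold in both libraries. Of the 46 KRAB members, 1 was 2-fold higher (Zfp324, 2.17%) and 1 lower (Zfp110, 2.17%). Their intervals lay above 1 for 13 (28.3%) and below for 18 (39.1%), with a median log2 ratio of -0.05. Of the 98 others, 2 were 2-fold higher (2.04%) and 0 lower. Their intervals lay above 1 for 31 (31.6%) and below for 41 (41.8%), with a median of -0.02. Over all genes, 6.81% were 2-fold higher and 4.85% lower, and intervals lay above 1 for 35.2% and below for 40.6%. Summed read ratios were 0.981 (0.957 to 1.01) for KRAB members and 0.959 (0.949 to 0.969) for the others. The median of the KRAB members did not keep its sign or size: it was 0.20 at 5 FPKM, -0.14 with upper-quartile scaling and -0.12 with scaling by own totals.

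The KRAB annotation in the authors' deposited table differed. It marked 30 of the members. Of these, 0 were 2-fold higher and 1 was 2-fold lower (Zfp110, 3.33%), against 6.81% and 4.85% of all genes. Zfp324 was not marked. Intervals of the 30 lay above 1 for 7 (23.3%, against 35.2% of all genes) and below for 13 (43.3%, against 40.6%). The median of the 30 was -0.13, with 11 above 0 and 19 below. Their 8095 and 7083 reads gave a summed ratio of 0.846 (0.820 to 0.874). Many of these reads came from 3 genes: Zfp777 (1675 and 1364, named after its values were seen), Zfp746 (1169 and 820) and Zfp110 (768 and 340). The sum without these genes was not computed. Of all 365 genes, 140 were marked by both, 75 by the translated proteins alone and 8 by the table alone. The summed ratio of KRAB members lay below 1 under the table's annotation and included 1 under the translated proteins.

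Fingers were counted only where they matched the C-2-C-12-H-3 to 5-H spacing. Those of other spacing or type were missed, so the numbers are of matches and can be too low. By number of such matches, in ranges chosen after the values were seen, 37 members had 0 to 3 fingers. Of these, 13 had an interval above 1 and 14 below, with a median of 0.09. The 54 members with 4 to 9 fingers had 10 above (18.5%) and 31 below (57.4%), with a median of -0.22. The 53 members with 10 or more had 21 above and 14 below, with a median of 0.07. Over all genes the shares were 35.2% above and 40.6% below. Within the middle range the median was -0.21 for KRAB members and -0.23 for others.

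The partners of KRAB proteins in silencing were a list of 20 genes, with 17 at 1 FPKM. Of these 17, 1 was past 2-fold (5.88%, against 11.7% of all genes): Setdb1, the target of the hairpin. Intervals lay above 1 for 7 of the 17 (41.2%, against 35.2%) and below for 6 (35.3%, against 40.6%). Besides Setdb1, Trim28, the corepressor that KRAB boxes bind, stood at 180 and 194 FPKM (0.11). Atf7ip, which stabilises the Setdb1 protein, stood at 4.51 and 6.01 FPKM (0.35). Daxx, a histone chaperone, was the highest partner at 15.0 and 28.5 FPKM (0.88). Of genes that belong to or act with the HUSH silencing complex, Pphln1 and Morc2a had log2 ratios of -0.49 and -0.50, while Mphosph8 had 75 reads in each library. Fam208a was under 1 FPKM, with 72 and 30 reads. Partners other than Setdb1 and Daxx were named after their values were seen.

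The 221 Zfp genes under 1 FPKM, where genes kept silent would be sought, also summed to nearly equal reads. There were 4413 in shCtrl and 4374 in shSetdb1, a ratio of 0.959 (0.919 to 1.0). Of these genes, 57 had 0 reads in both libraries, 34 of them with a KRAB box, and a count of 0 allows up to 3 reads, or 0.0370 FPKM at the median length. A further 9 had 0 reads only in shCtrl, with at most 4 reads in shSetdb1, and 10 had 0 only in shSetdb1, with at most 8 in shCtrl. Genes that rose from 0 reads to 1 FPKM would be members, so these counts could not show them. The lowest shCtrl level of any member was 0.442 FPKM, so no Zfp gene went from 0 reads to 1 FPKM. Intervals lay above 1 for 18 of the 221 genes (8.14%) and below for 17 (7.69%). Over all genes at 1 FPKM, which have more reads, the shares were 35.2% and 40.6%.

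The genes under 1 FPKM with the clearest differences, named after their values were seen, went both ways. Zfp30 had 33 and 102 reads, Zfp78 had 5 and 30, Zfp994 had 6 and 31, and Zfp606 had 34 and 71. In the other direction, Zfp945 had 21 reads and 1 read, Zfp984 had 52 and 14, and Zfp799 had 82 and 30. These low counts could not show a small difference.

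By chromosome, the summed reads of all Zfp genes had an interval above 1 on 5 of 20 chromosomes, below 1 on 12 and including 1 on 3. The ratios ran from 0.678 on chromosome 17 to 1.67 on chromosome 14. Single genes set these extremes: chromosome 17 stood at 1.02 (0.974 to 1.07) without Zfp598, and chromosome 14 at 0.968 (0.887 to 1.06) without Zfp395. Chromosome 3 stood at 1.49, and at 0.697 (0.603 to 0.804) without Zfp687. Chromosome 7 held 89 Zfp genes and 44 of the members, more than any other, and its sum stood at 1.02 (0.999 to 1.04). Of its members, 15 had an interval above 1 (34.1%, against 35.2% of all genes) and 13 below (29.5%, against 40.6%).

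On 3 chromosomes, picked from the 20 after the values were seen, most members with an interval clear of 1 lay on 1 side. On chromosome 15, 6 of 8 members had an interval above 1 and 1 below, with Zfp7 the highest and Zfp706 the lowest. On chromosome 18, 5 of 7 had an interval below 1 and 1 above, with Zfp532 the lowest. On chromosome 6, 6 of 9 were below 1 and 2 above. Over all genes at 1 FPKM, 35.2% lay above 1 and 40.6% below, so with 7 to 9 members a chromosome these counts are a description. The median over all genes at 1 FPKM was 0.07 on chromosome 15, -0.04 on chromosome 18 and -0.02 on chromosome 6.

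**Figure D4:**
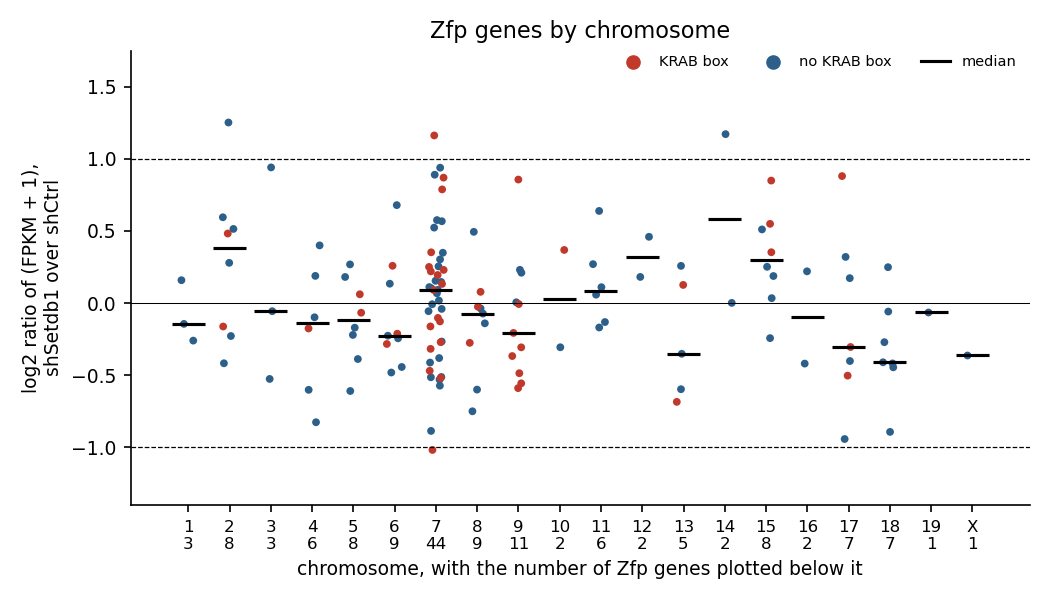
Log2 ratios of FPKM + 1, shSetdb1 over shCtrl, of the members by chromosome. Bars mark the median of each chromosome and dashed lines 2-fold. Every chromosome with 5 or more members has points on both sides of 0, and chromosome 7 with its 44 members spans nearly the whole range from Zfp110 at -1.02 to Zfp324 at 1.16.

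Neighbouring Zfp genes were joined into clusters where their starts lay within 500 kb and at least 5 genes followed each other. This gave 16 clusters on 7 chromosomes, 8 of them on chromosome 7, with 169 genes, of which 136 had a KRAB box and 56 were members. The summed read ratio lay above 1 in 5 clusters, below in 7 and included 1 in 4, from 0.655 to 1.84. With starts within 200 kb there were 15 clusters, with 3 above 1, 8 below and 4 that included 1. The clusters went both ways under either distance.

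In the cluster on chromosome 17 at chr17:21008903-23599487, 23 genes, 22 of them with a KRAB box, summed to 569 and 708 reads, a ratio of 1.20 (1.08 to 1.35). Without Zfp53 the ratio was 1.06 (0.943 to 1.20). A run of 18 of its genes, each starting within 200 kb of the next, spanned 1.07 Mb. These had 271 and 478 reads, a ratio of 1.71 (1.47 to 1.99), and 1.48 (1.25 to 1.76) without Zfp53. Of these 18, 13 had more reads in shSetdb1, 3 had fewer and 2 had equal numbers, but only 3 had a counting interval above 1 and 0 below.

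The cluster at chr4:145510759-147848366, with 18 KRAB genes, went the other way. It held 282 reads in shCtrl and 191 in shSetdb1, a ratio of 0.655 (0.542 to 0.790), although Zfp933, named after its values were seen, had 21 and 48 reads. Clusters on chromosomes 8 and 9, of 6 and 5 KRAB genes, stood at 0.688 (0.573 to 0.824) and 0.722 (0.628 to 0.829). These sums rest on few reads, from 191 to 485 a library. Most genes of the chromosome 4 cluster, and many of the chromosome 17 cluster, have a Swiss-Prot match carried by 60 loci. How reads common to such near copies were counted is not given in the sources used here. The clusters described on chromosomes 17, 4, 8 and 9 were picked from the 16 after the values were seen.

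**Figure D5:**
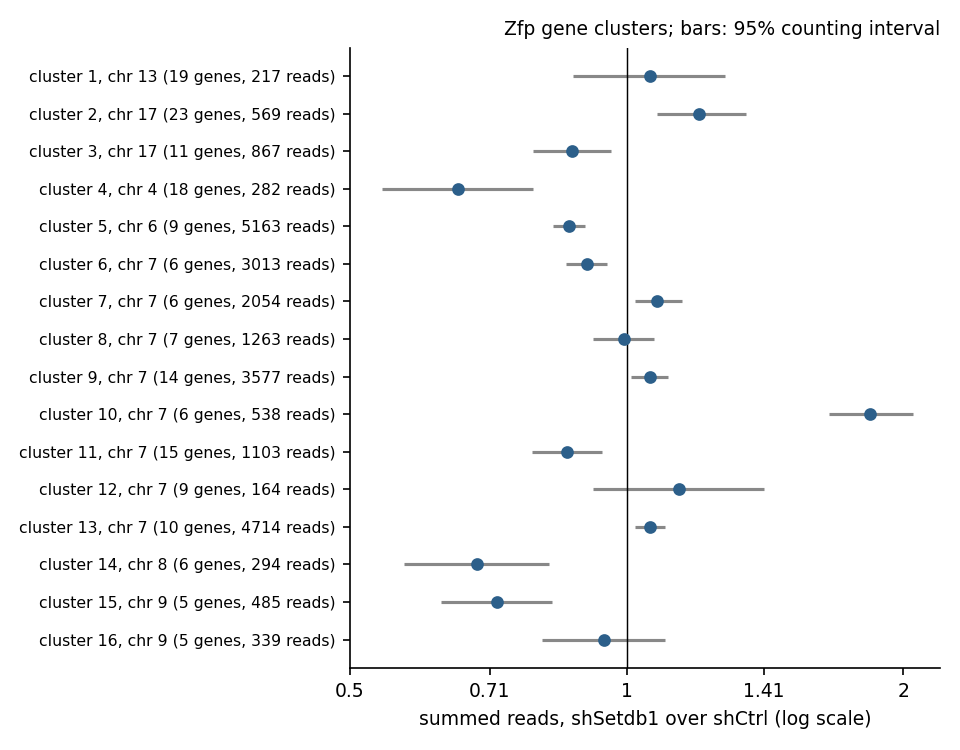
Summed read ratio of all Zfp genes in each of the 16 clusters, shSetdb1 over shCtrl relative to library totals, on a log axis. Points are ratios, bars are 95% counting intervals, and the number of genes and of shCtrl reads stands beside each cluster. The ratios run from 0.655 to 1.84 on both sides of 1.

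Within clusters, some neighbours stood on opposite sides. At chr7:12415153-12985714 the starts of Zfp110 and Zfp324 are 131 kb apart, and the 7 genes summed to a ratio of 0.993 (0.918 to 1.07). Zfp446, between Zfp324 and Trim28 and likewise named afterwards, had 179 and 167 reads, and the start of Trim28 is 33.3 kb from that of Zfp324. In another chromosome 7 cluster the starts of Zfp146 (-0.89) and Zfp382 (0.87) are 39.3 kb apart. The cluster around Zfp36 stood at 1.84 (1.66 to 2.05) with that gene and at 1.37 (1.09 to 1.73) without it.

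In the 4 remaining clusters with at least 5 members, the highest and lowest log2 ratios also lay on opposite sides of 0. The ends of several values near 0 will often do so. At chr7:127233061-127885996 all 10 genes were members, with Zfp668 the highest (0.58) and Zfp771 the lowest (-0.53), and 4 intervals above 1 against 3 below. Zfp668 overlaps Zfp646, another gene with reads. Zfp553, at 0.52 and also named afterwards, starts 11.2 kb from Zfp771. At chr6:47819266-48623227, Zfp775 had 135 and 264 reads (0.68) and Zfp746, a repressor known as a Parkin substrate, had 1169 and 820 (-0.44). At chr7:24081924-25227507 the ends were Zfp526 (0.89) and Zfp428 (-0.57), and at chr7:4915217-5053723 they were Zfp580 (0.09) and Zfp579 (-0.51). The interval of Zfp580 included 1 (0.802 to 1.36), and its cluster had 0 intervals above 1 and 1 below.

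Other zinc finger families were set beside the members, of which 2.78% were past 2-fold, and all genes at 1 FPKM, of which 11.7% were. Of 26 Zbtb genes at 1 FPKM, 1 was 2-fold higher and 0 lower (3.85% in all, median 0.01), and of 11 Zscan and Zkscan genes none was past 2-fold (median 0.09). The 17 Klf and Sp genes had 2 higher and 0 lower (11.8% in all, median -0.22). The table's own C2H2 zinc finger annotation covered 187 genes at 1 FPKM, with 10 higher and 4 lower (7.49%). The 77 of these not named Zfp with digits held 8 higher and 3 lower (14.3%). These differences in share between families were not tested.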

How the data were processed

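Per the submitters' processing notes, CASAVA, HISAT2, featureCounts 1.5.0-p3 and GRCm38 were used; strand setting, annotation release and filters are not given in the sources used here. The authors deposited FPKM values for 2 libraries, 1 a group, mapped to groups by the library names in the labels. FPKM times gene length gave whole reads for 100% of values above 0 (within 0.01 read) and showed that both libraries were divided by a common depth of 18731117 reads. With 1 library a group no count model or test was run. Log2 ratios of FPKM + 1 (pseudocount 1), counts past 2-fold and exact Clopper-Pearson 95% intervals on the reads were computed with Python 3.11.15, pandas 2.3.3 and scipy 1.17.1, and the interval code was tested on simulated data.

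Proteins were translated from GENCODE M21 transcripts in their annotated frame, in place of the RefSeq proteins planned. A KRAB box needed at least 9 of 12 A-box positions, and a finger the C-2-C-12-H-3 to 5-H spacing. Of the RefSeq promoter windows only the 250 bases before the start were used.

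The genes named were the 10 highest and 10 lowest log2 ratios, the 6 highest mean levels, the ends of each cluster with at least 5 members, 3 genes on either side of 1 FPKM, the genes of known role, and Setdb1 with the highest and lowest partner; others are said to be named afterwards. Members, lists and rules were chosen with earlier results of these data known. Alternatives were the pseudocount, the level filter, the scaling, the fold, overlap with other genes, the family definition and the cluster distance.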

Additional observations from a re-analysis of the deposited data

How the results depend on the processing

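Of 54 recomputed counts and medians, 36 moved little and 18 moved further. The median log2 ratio of the members was 0.0000 without a level filter, 0.0341 at 5 FPKM, -0.0164 at a mean of 1 FPKM, -0.0069 at 1 FPKM in both libraries, -0.0698 without overlapping genes, -0.0931 with upper-quartile scaling and -0.0790 with scaling by own totals. These scalings put the median of all genes at -0.0600 and -0.0420. Counts of members 2-fold higher and lower were 10 and 6 with a pseudocount of 0.1 (Setdb1 at -2.04), or 11.1% in all against 18.8% of all genes. With a threshold of 1.5-fold the counts were 14 and 12, or 18.1% against 31.2%. Over the table's C2H2 family they were 10 and 4 at 2-fold, or 7.49% against 11.7%. With upper-quartile scaling they were 3 and 2, or 3.47% against 11.8%. Intervals lay above 1 for 24 and below for 26 of 67 genes at 5 FPKM, where the share over all genes was not computed. Without overlap, 26 of 98 members had an interval above 1 (26.5%) and 42 below (42.9%). Over all genes at 1 FPKM the shares were 35.2% and 40.6%. Fewer genes enter at 5 FPKM and without overlap; for the other shifts the cause was not tested. The median of KRAB members ran from -0.14 with upper-quartile scaling to 0.20 at 5 FPKM, and that of the others from -0.12 without overlapping genes to 0.02 at 5 FPKM. Of 200 recomputed gene values, 9 moved and 0 changed sign. Alternatives chosen after seeing the data were 1 FPKM in both libraries, the common depth for intervals, and those for the KRAB groups. No paired analysis was possible because there was a single library on either side. Depth leaves genes under 1 FPKM, mostly with a few reads, unable to show small differences.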
